A study of Homo sapiens with 12 samples.

Results

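CDKN1B, which encodes the cell-cycle inhibitor p27, and other regulators of the G1 phase were described in MOLT4 cells exposed to compound 955 or to SNS-032. The members are a fixed list of CDK inhibitors, D-type and E-type cyclins and RB1, found by matching gene IDs to symbols. The list was chosen with earlier results of these data known. Of 10 members, 5 were among the 5759 genes of the table analysed: CDKN1B (gene ID 1027), CDKN2C (1031), CDKN2D (1032), CCND2 (894) and CCNE1 (898). The other 5, CDKN1A, CDKN1C, CCND3, CCNE2 and RB1, are not analysed here.

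MOLT4 is an established human T lymphoblast line from an acute lymphoblastic leukaemia, of wild-type genotype per the labels. There were 12 RNA samples, 3 in each of 4 groups. Vehicle (DMSO) cells were taken at 6 h, cells given 0.1 µM of 955 at 1 h and at 6 h, and cells given 1 µM of SNS-032 at 6 h. SNS-032 inhibits cyclin-dependent kinases, among them CDK9, which releases paused RNA polymerase II, and 955 is a conjugate of piperlongumine that carries SNS-032 as its target-binding part. The 2 compounds were given at different doses, all groups are of 1 line, and vehicle was sampled at 6 h only, so that 1 h of 955 against DMSO cannot be told apart from a difference in time. The design asks how the response to 955 compares with that to the parent inhibitor.

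Passage from G1 to S phase is driven by D-type cyclins with CDK4 or CDK6 and by E-type cyclins with CDK2, which phosphorylate RB1 and its relatives and so release E2F transcription factors. INK4 proteins such as p18 (CDKN2C) and p19 (CDKN2D) bind CDK4 and CDK6, whereas p27 (CDKN1B) acts mainly on CDK2 complexes. In T-lineage cells p27 is known as a brake on proliferation, and cyclin D2, the product of CCND2, is induced when T cells are stimulated to divide.

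All effects below are log2 fold changes against DMSO from the authors' deposited table, which gives no value per sample. From it an implied standard error (SE) was derived, by dividing the size of the effect by the root of its F statistic, and with it a 95% interval. A gene passed the threshold when its FDR, the p-value adjusted by the authors for multiple testing, was under 0.05 and its effect was at least 1 in size. All 5759 genes reached that FDR somewhere among the 3 comparisons, and 5757 of them passed the full threshold at least once. The table thus holds genes that had changed, by nearly the same threshold as used here. A listed gene that did not pass in 1 comparison was nearly bound to pass in another. The shares of listed genes given below as background are shares of this selected list, not of all expressed genes. The depth per sample is unknown. Nothing in the labels says that the replicates came from separate cultures, so the p-values measure the spread between these samples, which may be technical.

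The scaling of the libraries touches every value. The 13 mitochondrially encoded mRNAs had a median log2 fold change of 0.67 after 1 h of 955, 2.07 after 6 h of 955 and 2.35 with SNS-032, by the authors' deposited table. Of the 13, 0 passed at 1 h and 13 with each treatment at 6 h, in the authors' deposited table. Subtracting these medians, called mitochondrial scaling here, lowers every gene by the same amount. Fewer cells of a kind and less RNA per cell cannot be told apart in these bulk samples. Of 20 T lymphoblast marker genes, 9 were among the listed genes, and CD1E, CD3G and CD7 had average levels of 8.06, 7.13 and 7.06 (log2 CPM) in the authors' deposited table. Of the B-cell markers, CD79A had an average level of 3.94 in the authors' deposited table, and of 8 myeloid markers 0 were listed. Of the 9 T lymphoblast markers 2 were lower past the threshold at 1 h, 6 were lower and 2 higher after 6 h of 955, and 6 were lower and 3 higher with SNS-032. Of all listed genes, 8.44%, 85.3% and 90.2% passed in either direction in these comparisons. The part of these changes in the results below was not tested.

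The 5 members lie on 3 chromosomes in RefSeq's GRCh38.p14, the build family (hg38) that the submitters' processing notes name. CDKN1B spans chr12:12717368-12722369, CCND2 chr12:4273762-4305353, CDKN2C chr1:50960745-50974634, CDKN2D chr19:10566460-10568979 and CCNE1 chr19:29811991-29824312. Their spans of 5.00 kb (CDKN1B), 31.6 kb (CCND2), 13.9 kb (CDKN2C), 2.52 kb (CDKN2D) and 12.3 kb (CCNE1) compare with a median of 22.3 kb over 5727 listed genes. CCND2 alone among the 5 overlaps another annotated gene, CCND2-AS1, which is not analysed here. The use of strand in counting is not given in the sources used here, so CCND2 and CCND2-AS1 reads may not be separated.

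Upstream sequences are shown for 3 members that were lower with SNS-032, since they let promoters of genes that moved the same way be read side by side. They are taken from RefSeq's promoter table (GRCh38.p14), on the gene's strand, 5′ to 3′, and stop where an exon of the gene begins in GENCODE release 29. Capitals mark the GC box GGGCGG and the CCAAT box on either strand.
CDKN2C, chr1:50960495-50960744, plus strand: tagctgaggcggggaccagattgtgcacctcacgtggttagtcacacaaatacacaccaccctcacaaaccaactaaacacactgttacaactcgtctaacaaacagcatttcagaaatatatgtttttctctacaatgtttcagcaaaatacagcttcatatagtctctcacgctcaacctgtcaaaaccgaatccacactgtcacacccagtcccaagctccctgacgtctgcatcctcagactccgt
CDKN2D, chr19:10569060-10569229, minus strand: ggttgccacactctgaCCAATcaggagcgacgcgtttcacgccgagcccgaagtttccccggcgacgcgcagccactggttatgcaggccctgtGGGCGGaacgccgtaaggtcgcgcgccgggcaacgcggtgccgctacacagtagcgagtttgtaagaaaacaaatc
CCNE1, chr19:29811741-29811897, plus strand: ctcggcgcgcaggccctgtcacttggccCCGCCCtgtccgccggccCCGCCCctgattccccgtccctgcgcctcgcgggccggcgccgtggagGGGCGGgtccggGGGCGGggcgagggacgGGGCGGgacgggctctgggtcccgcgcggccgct

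The CCNE1 stretch held 5 GC boxes and 0 CCAAT boxes, the CDKN2D stretch 1 of each, and the CDKN2C stretch, before the first of 3 RefSeq starts, 0 of each. The windows before the other CDKN2C starts, which lie in GENCODE exons and are not printed, held 5 GC boxes in one and 1 GC box with 1 CCAAT box in the other. Over the full 250 bases before the start, CCNE1 had 7 GC boxes and 0 CCAAT boxes, and CDKN2D had 2 GC boxes and 1 CCAAT box. CDKN1B had 1 GC box and 2 CCAAT boxes over its 250 bases, but 244 of them lie in a GENCODE exon and are not printed. Among 35116 RefSeq windows of 250 bases, 42.6% held a GC box and 32.0% a CCAAT box. None of the 6 member windows held TATAAA or any of 4 spellings of the E2F motif (TTTCCCGC, TTTCGCGC, TTTGCCGC and TTTGGCGC), which 10.7% and 2.79% of all windows held. CCND2 had no entry.

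CDKN1B fell within 1 h of 955 and had much the same value after 6 h. In the authors' deposited table its log2 fold change was -2.16 after 1 h of 955 (SE 0.28, FDR 0.000273), -2.22 after 6 h of 955 (SE 0.28, FDR 1.06e-05) and -2.53 with SNS-032 (SE 0.28, FDR 2.88e-06). This corresponds to 22.4% of the DMSO level at 1 h (95% interval 14.9% to 33.7%), 21.4% at 6 h (14.2% to 32.3%) and 17.3% with SNS-032 (11.4% to 26.3%). All 3 intervals lay below the level of DMSO and overlapped each other widely.

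The position of CDKN1B among the listed genes differed between the times. At 1 h it ranked 29th from the lowest log2 fold change of the 5759 listed genes, with 0.486% of them lower. At 6 h 12.1% of the listed genes were lower than CDKN1B with 955 and 10.3% with SNS-032. The difference of CDKN1B between 6 h and 1 h of 955 was -0.07 (SE 0.28, 95% interval -0.66 to 0.53, adjusted p 0.826 over all listed genes). This is an approximate contrast of the 2 deposited effects, which share the DMSO samples. Under mitochondrial scaling the same difference was -1.46 (adjusted p 0.00018), past the threshold, so a level held from 1 h to 6 h is a statement about the authors' scaling.

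**Figure D1:**
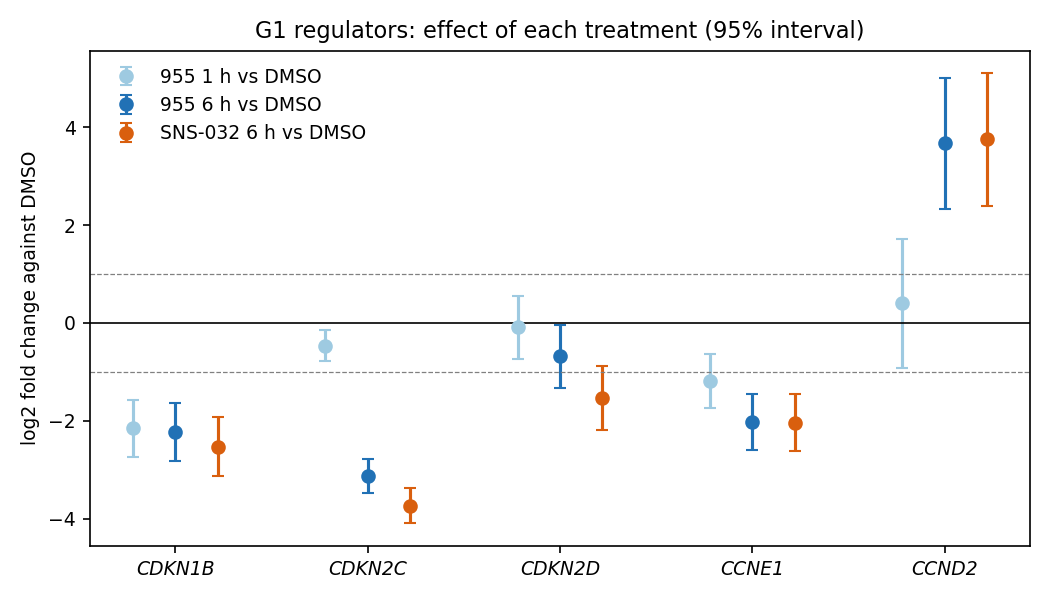
Log2 fold change against DMSO (vertical axis) of the 5 members after 955 for 1 h, 955 for 6 h and SNS-032 for 6 h. Points are values of the authors' deposited table, bars are 95% intervals from the implied SE, and dashed lines mark a log2 fold change of 1 in each direction. CDKN1B is near -2 in all 3 comparisons, CDKN2C is low at 6 h only by the threshold, and CCND2 is high at 6 h with wide intervals.

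Of the INK4 inhibitors, neither passed the threshold at 1 h. CDKN2C, the gene of p18, had, in the authors' deposited table, a log2 fold change of -0.46 at 1 h (SE 0.15, FDR 0.099), which did not pass the threshold. After 6 h it fell by 3.13 with 955 (SE 0.17, FDR 9.27e-13) and by 3.74 for SNS-032 (SE 0.17, FDR 8.05e-14) by the authors' deposited table. These are 11.4% (9.0% to 14.5%) and 7.49% (5.85% to 9.59%) of the DMSO level, the lowest of the 5 members. At 6 h, 2.78% of the listed genes were lower than CDKN2C with 955 and 1.93% with SNS-032. The change from 1 h to 6 h of 955 was -2.67 (SE 0.16, adjusted p 2e-12) and passed the threshold. Under mitochondrial scaling CDKN2C was at -1.14 already at 1 h and past the threshold there.

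CDKN2D, the gene of p19, passed the threshold with SNS-032 and not with 955. As 5757 of the 5759 listed genes passed in at least 1 comparison, CDKN2D is listed through its SNS-032 value. In the authors' deposited table its log2 fold change was -0.09 after 1 h of 955 (SE 0.29, FDR 1), -0.68 after 6 h of 955 (SE 0.29, FDR 0.122) and -1.54 with SNS-032 (SE 0.30, FDR 0.00157). With SNS-032 this is 34.4% of the DMSO level (21.8% to 54.3%), and with 955 at 6 h it is 62.2% (39.8% to 97.2%). Passing in 1 comparison only does not show a difference between the compounds. The difference itself, 955 minus SNS-032 at 6 h, was 0.85 (SE 0.30, 95% interval 0.20 to 1.51, adjusted p 0.197) and did not pass the threshold. Mitochondrial scaling put CDKN2D past the threshold with 955 at 6 h too, at -2.76, and its difference between the compounds at 1.13 (adjusted p 0.0332). Under either scaling the difference uses the SNS-032 value through which CDKN2D is listed, so it is not an independent test.

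CCNE1, which encodes the CDK2 partner cyclin E1, fell in all 3 comparisons. In the authors' deposited table its log2 fold change was -1.18 after 1 h of 955 (SE 0.27, FDR 0.011), -2.03 after 6 h of 955 (SE 0.27, FDR 4.66e-06) and -2.04 with SNS-032 (SE 0.28, FDR 4.35e-06). The levels were 44.1% of DMSO at 1 h (30.02% to 64.7%), 24.4% after 6 h of 955 (16.4% to 36.3%) and 24.4% with SNS-032 (16.4% to 36.3%). The difference between 6 h and 1 h of 955 was -0.85 (SE 0.27, adjusted p 0.00686), under the adjusted threshold but short of the bound of 1. With an SE that ignores the shared control the adjusted p was 0.051.

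CCND2, which encodes the CDK4 and CDK6 partner cyclin D2, was the member that rose. The authors' deposited table gave it 0.40 at 1 h (SE 0.60, FDR 1), with an interval of -0.91 to 1.72. After 6 h the authors' deposited table had 3.67 with 955 (SE 0.61, FDR 0.000523) and 3.75 with SNS-032 (SE 0.62, FDR 0.000431). These are 12.7-fold (5.00-fold to 32.5-fold) and 13.5-fold (5.28-fold to 34.5-fold) above DMSO. At 6 h 98.4% of the listed genes were lower than CCND2 with 955 and 98.5% with SNS-032. The change from 1 h to 6 h of 955 was 3.27 (SE 0.61, adjusted p 0.000363).

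The CCND2 effect was the least precise of the 5, with implied SEs near 0.6 against a median of 0.24 over the listed genes at 6 h. Its average level of 2.70 (log2 CPM) in the authors' deposited table corresponds to 0.0007 on the log2 scale per kb of its longest GENCODE transcript. On this per-length scale CCNE1 was at 2.86, CDKN1B at 3.24, CDKN2C at 4.43 and CDKN2D at 4.70, so CCND2 was the lowest member. These averages run over all samples, treated ones included, and their spread over samples is not analysed here. Mitochondrial scaling left CCND2 higher at 6 h, at 1.60 with 955 and at 1.41 with SNS-032, where it no longer passed the threshold (adjusted p 0.0505).

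**Figure D2:**
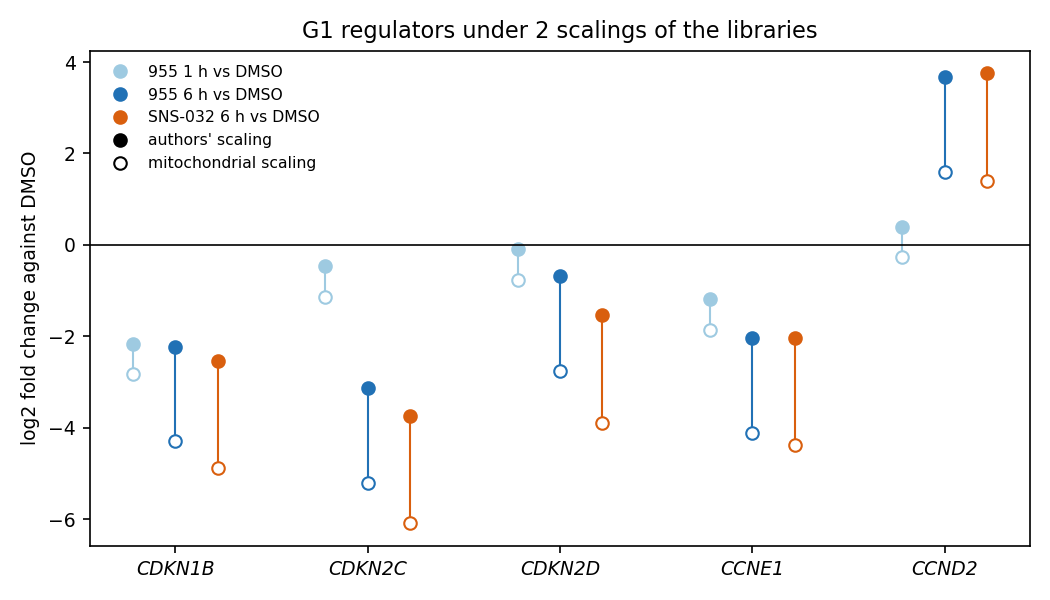
Log2 fold change against DMSO (vertical axis) of each member under the authors' scaling (filled) and under mitochondrial scaling (open), for the 3 comparisons. The open points lie lower by 0.67, 2.07 and 2.35, and CCND2 at 6 h stays above 0 in both.

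Counted together, 2 of the 5 listed members were past the threshold after 1 h of 955, both lower (CDKN1B and CCNE1), where 7.71% of all listed genes were lower past it 0.729% higher and 8.44% either. After 6 h of 955, 3 were lower and 1 higher, against 50.1% and 35.2% of the listed genes and 85.3% in either direction. With SNS-032, 4 were lower and 1 higher, against 52.5%, 37.8% and 90.2%. By the FDR alone the members counted 2, 4 and 5, against 16.6%, 93.5% and 95.7% of the listed genes. Most listed genes passed at 6 h, in a list that holds changed genes only, so the members' counts there do not set them apart. The median log2 fold change of the members was -0.46 at 1 h, -2.03 after 6 h of 955 and -2.04 with SNS-032, beside -0.05, -1.03 and -1.07 over all listed genes.

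**Figure D3:**
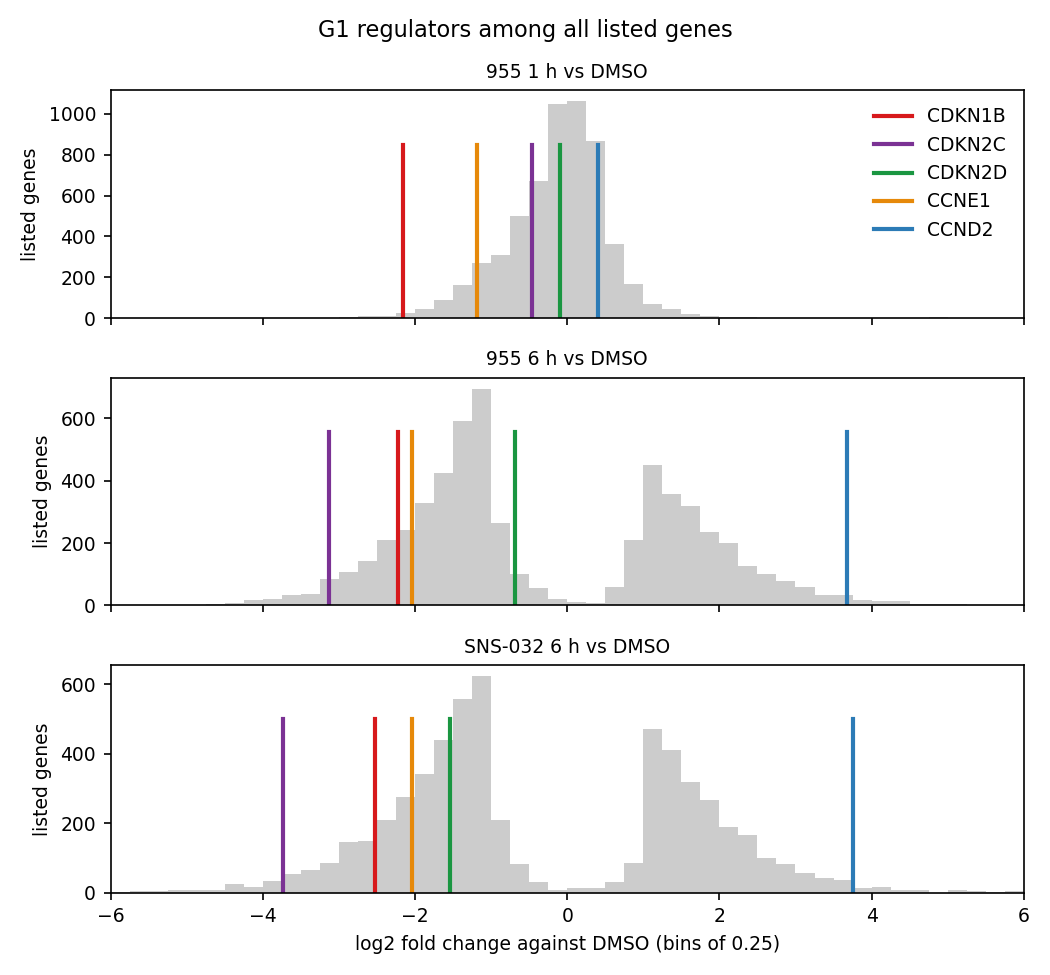
Number of listed genes (vertical axis) by log2 fold change against DMSO (horizontal axis, bins of 0.25, drawn from -6 to 6) in the 3 comparisons, with coloured lines at the 5 members. CDKN1B stands in the low tail at 1 h and inside the main group of lower genes at 6 h, where CDKN2C and CCND2 are farther out.

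Between 955 and SNS-032 at 6 h, given at unequal doses, 0 of the 5 members passed the threshold, where 1.11% of all listed genes did. By the adjusted p alone the members again counted 0, against 2.73%. These contrasts were adjusted over all 5759 genes. The difference, 955 minus SNS-032 at 6 h, was 0.30 for CDKN1B (95% interval -0.30 to 0.90, adjusted p 0.694), 0.00 for CCNE1 (-0.57 to 0.58, adjusted p 1.0) and -0.08 for CCND2 (-1.43 to 1.27, adjusted p 0.969). CDKN2C differed by 0.61 (0.26 to 0.96, adjusted p 0.0537), with the level lower under SNS-032. The CDKN1B interval reaches near the bound of 1 and the CCND2 interval past it, while the CCNE1 interval stays within 0.58 of 0 on either side. Equality is not shown for any of them. Between 6 h and 1 h of 955, 1 member was higher past the threshold (CCND2) and 1 lower (CDKN2C), against 27% and 35.6% of the listed genes and 62.6% in either direction. By the adjusted p alone 3 members passed, against 84.7%.

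**Figure D4:**
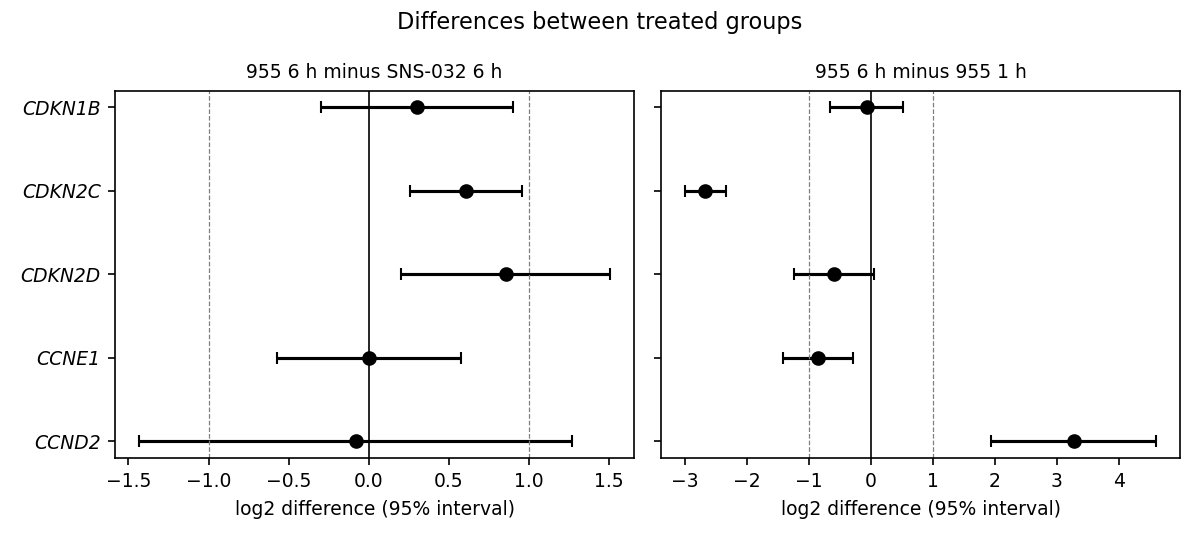
Log2 difference between treated groups (horizontal axis) for each member, 955 minus SNS-032 at 6 h on the left and 955 at 6 h minus 1 h on the right, with 95% intervals and dashed lines at a difference of 1 in each direction. All 5 differences on the left lie between -0.08 and 0.85, and on the right CDKN2C and CCND2 lie apart from 0 in opposite directions.

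Genes that control p27 were taken from a list of 14, of which 4 were in the table. After 1 h of 955, 1 was lower past the threshold, after 6 h of 955 2 were lower and 1 higher, and with SNS-032 3 were lower and 1 higher. The shares of all listed genes past the threshold in either direction were 8.44%, 85.3% and 90.2%, so the counts at 6 h are near the background. Mitochondrial scaling raised the count at 1 h to 2. CCNF, which encodes the substrate receptor cyclin F, had effects of -1.13 at 1 h (FDR 7.74e-06), -3.17 after 6 h of 955 (FDR 4.29e-14) and -2.86 with SNS-032 (FDR 1.09e-13) by the authors' deposited table. CUL1, the scaffold of the SCF ligase that ubiquitinates p27, was at -0.37 at 1 h (FDR 0.204) in the authors' deposited table and fell by 1.49 with each compound at 6 h (FDR 1.47e-08 and 1.25e-08). COPS5, a subunit of the COP9 signalosome, was at -0.78 with 955 (FDR 0.000502, short of the fold bound) and fell by 1.46 with SNS-032 (FDR 1.32e-07) by the authors' deposited table. AKT1, a kinase that phosphorylates p27, rose by 1.10 with 955 (FDR 2.82e-07) and 1.07 with SNS-032 (FDR 4.05e-07) by the authors' deposited table, and its sign turned under mitochondrial scaling (-0.97 and -1.28). The receptor gene SKP2 and its partner CKS1B were in the list and are not analysed here.

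Of 17 genes of pocket proteins, E2F factors and the DREAM complex, 10 were in the table, and 3 were lower past the threshold after 1 h of 955, 7 after 6 h of 955 and 8 with SNS-032, with 0 higher. Their median log2 fold changes were -0.80, -1.17 and -1.26, beside the medians of all listed genes given above. Of all listed genes 7.71%, 50.1% and 52.5% were lower past the threshold in these comparisons. The 3 at 1 h were all E2F genes: in the authors' deposited table E2F8 was at -1.33 (SE 0.14), E2F7 at -1.25 (SE 0.16) and E2F2 at -1.16 (SE 0.14). E2F7 and E2F8 encode repressors of the family and E2F2 an activator.

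At 6 h E2F2 and E2F7 did not pass the threshold. E2F2 was at 0.04 with 955 and 0.03 with SNS-032 and E2F7 at 0.01 and 0.09, by the authors' deposited table, with FDR values from 0.915 to 1. The change from 1 h to 6 h of 955 was 1.20 for E2F2 (SE 0.14, adjusted p 5.72e-08) and 1.26 for E2F7 (SE 0.15, adjusted p 1.3e-07). Both genes passed the threshold at 1 h only, and 5757 of the 5759 listed genes passed in at least 1 comparison. The 2 genes are thus listed through the 1 h value that this change uses, so it is not an independent test. By the authors' deposited table E2F8 was at -1.11 with 955 and -1.04 with SNS-032, both past the threshold. Under mitochondrial scaling the changes of E2F2 and E2F7 from 1 h to 6 h were -0.19 and -0.13, and both genes were past the threshold as lower at 6 h. By the authors' deposited table E2F6 was at -2.60 after 6 h of 955 and -2.23 for SNS-032, and RBL1, the gene of the pocket protein p107, at -1.42 and -1.32, each past the threshold.

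Of 13 genes of G1 kinases and their regulators, 10 were in the table. After 1 h of 955, 4 were lower past the threshold: AMBRA1, whose product directs degradation of D-type cyclins, at -1.38 (FDR 0.000109), WEE1, an inhibitory kinase of CDK1 and CDK2, at -1.36 (FDR 1.29e-05), CDC25A, the phosphatase that activates CDK2, at -1.10 (FDR 0.000535), and FBXO5, an inhibitor of the APC/C ligase, at -1.09 (FDR 0.0201), in the authors' deposited table. Of all listed genes 7.71% were lower past it at 1 h. After 6 h, 8 were lower with 955 and 8 with SNS-032, against 50.1% and 52.5% of all listed genes. By the authors' deposited table WEE1 was then at -2.79 and -2.51 and FBXO5 at -2.32 and -2.88. The list's largest effect was that of CDK7, the kinase that activates other CDKs, at -4.48 with SNS-032 (SE 1.06, FDR 0.00269), against -0.96 after 6 h of 955 (SE 0.84, FDR 0.546), by the authors' deposited table. Its average level of 0.16 (log2 CPM) was low, and the difference between the compounds, 3.52 (SE 0.96, 95% interval 1.51 to 5.54, adjusted p 0.0597), did not pass the threshold. CDK7 passed in no other comparison and so is listed through its SNS-032 value. CDC37, a kinase cochaperone chosen after its values were seen as the 1 gene of the list that was higher, had a value of 1.06 for SNS-032 by the authors' deposited table and at -1.29 under mitochondrial scaling.

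**Figure D5:**
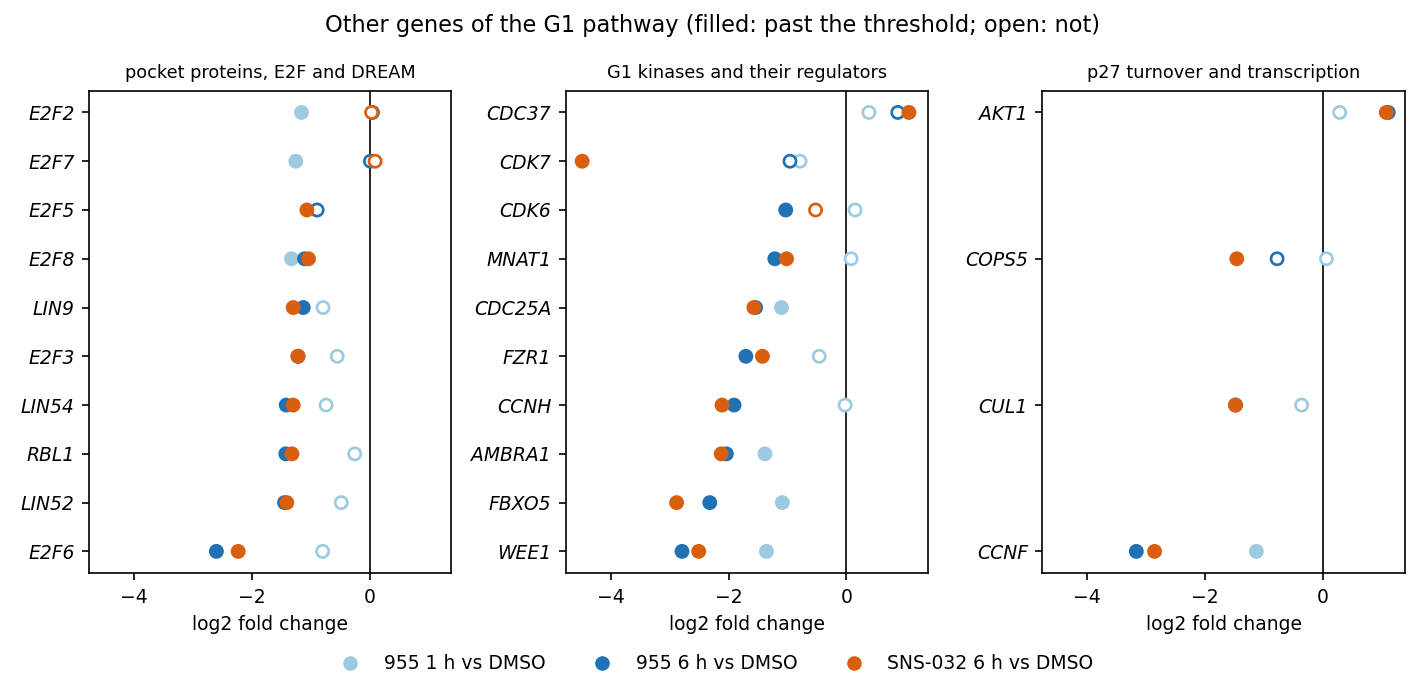
Log2 fold change against DMSO (horizontal axis) of the listed genes of 3 groups, pocket proteins with E2F and DREAM genes, G1 kinases with their regulators, and genes of p27 turnover and transcription, in the 3 comparisons. Filled points passed the threshold and open points did not. E2F2 and E2F7 are low at 1 h and near 0 at 6 h, while WEE1, FBXO5 and CCNF are lower at 6 h than at 1 h.

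Downstream of E2F, 22 of 47 G1/S target genes were in the table, CCNE1 and E2F2 among them. At 1 h these 2 were the genes past the threshold, both lower, and the median was -0.27. After 6 h of 955, 19 were lower and 0 higher with a median of -1.69, and with SNS-032 18 were lower with a median of -1.59. The shares of all listed genes that were lower past the threshold were 7.71%, 50.1% and 52.5%. PCNA, the sliding clamp of DNA polymerase, was in the authors' deposited table at -0.08 at 1 h, -3.14 after 6 h of 955 and -4.21 for SNS-032. Its difference between the compounds, 1.07 (SE 0.15, adjusted p 0.000358), was the 1 of the 22 past the threshold. Of 7 other G1/S cyclin and inhibitor genes, 2 were in the table, with 0 past the threshold at 1 h and both lower with each compound at 6 h, where 50.1% and 52.5% of all listed genes were lower past it. Mitochondrial scaling put 1 past the threshold at 1 h. CCNA2, the gene of the S-phase cyclin A2, was in the authors' deposited table at -0.40 at 1 h, -3.65 after 6 h of 955 and -3.83 for SNS-032. CDKN3, the gene of a phosphatase that acts on CDK2, was by the authors' deposited table at -0.01, -2.94 and -2.98.

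The listed genes most like CDKN1B over the 3 comparisons were sought by Euclidean distance on the log2 fold changes, among 5318 genes with an average level of at least 1 (log2 CPM). Among the nearest were USP27X (distance 0.13), NFKBIE (0.19), ZNF557 (0.32) and TNFRSF1A (0.35). Their average levels (log2 CPM) in the authors' deposited table were 1.12, 1.86, 2.90 and 4.44 in that order, against 4.64 for CDKN1B. The distance takes no account of the precision of each effect. In the authors' deposited table these 4 were between -2.22 (NFKBIE) and -1.88 (ZNF557) after 1 h of 955, all with an FDR under the threshold. The comparisons share the DMSO samples and number 3. With the distance taken on the signed square root of F, 0 of these 4 were again among the nearest 5.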

How the data were processed

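RNA-seq of 12 MOLT4 samples in 4 groups of 3, assigned from their titles, was analysed through a table of the authors' own comparisons. Per the file headers, the deposited table gives, by gene and comparison with DMSO, a fold change and an average CPM on a log scale, the score F, a p-value and an FDR. The authors' log scale was taken to be log2: each gene's strongest effect is at least 1.00 in size, a bound natural to that base. The submitters' processing notes name hg38 and DESeq2, with no role. An average log CPM and an F are not columns of DESeq2's usual output, and the tool behind them, on which the implied SEs rest, is not given in the sources used here. The aligner, counter, use of strand and filters are not given in the sources used here, and depth per sample is unknown.

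The deposited p-value and FDR were used for comparisons with DMSO. For 2 treated groups, the log2 fold changes were subtracted, with the root mean square of the 2 implied SEs, the denominator degrees of freedom solved from F and p, and Benjamini-Hochberg adjustment over 5759 genes. This contrast was run on simulated counts with 1 known spread for all genes and no selection of changed genes. That run does not show how the contrast performs on the listed genes. Mitochondrial scaling, no fold bound, an FDR of 0.01, a level filter and 2 other SEs were tried. Symbols came from RefSeq (GRCh38.p14), where 5727 IDs matched. Scripts used Python 3.11.15, scipy 1.17.1 and pandas 2.3.3. Members and gene lists were chosen with earlier results of these data known. All members found were named, and from each list genes among the 3 largest effects past the threshold in any 1 comparison, whose values may then be given in the others. Results for a few genes are not reported here.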

Additional observations from a re-analysis of the deposited data

Results flagged for a closer look

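The effect of 955 differed between 6 h and 1 h, by the approximate contrast, for 2 of the 5 members and 15 of 22 pathway genes singled out for large effects. Of all listed genes 62.6% passed the same contrast, so these counts are near the background. The log2 difference was -2.67 for CDKN2C and 3.27 for CCND2. Among cyclins and their regulators it was -3.25 for CCNA2, -2.93 for CDKN3, -2.03 for CCNF, -1.43 for WEE1, -1.23 for FBXO5 and -1.12 for CUL1. Among E2F genes and pocket proteins it was 1.20 for E2F2, 1.26 for E2F7, -1.80 for E2F6 and -1.17 for RBL1. Among replication genes it was -3.06 for PCNA, -2.48 for GINS3, -2.33 for FEN1, -2.25 for GMNN and -1.65 for CDC6. Vehicle was sampled at 6 h only. E2F2 and E2F7 passed the threshold at 1 h only and are listed through the 1 h value that this difference uses. CDKN2C, CCND2, CCNA2, CDKN3, CUL1, E2F6, RBL1, PCNA, GINS3, FEN1, GMNN and CDC6 passed at 6 h only, with both 955 and SNS-032. Either 6 h value would list these genes, so their listing does not rest on the 955 value alone. It still rests on effects at 6 h, so none of these differences is an independent test.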

How the results depend on the processing

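The count of members past the threshold stayed within 1.5 times the main count in 17 of 20 alternatives over the 5 comparisons. The exceptions were an FDR under 0.01 at 1 h, with 1 member in place of 2 (CCNE1 lost), and mitochondrial scaling, with 1 in place of 0 for 955 against SNS-032 and 5 in place of 2 for 6 h against 1 h of 955. Of the 17, the 3 with a level filter (average log2 CPM at least 1) could change no count, as the lowest member, CCND2, was at 2.70. Within the 1.5 bound, mitochondrial scaling still gave 3 in place of 2 at 1 h. It gave 5 in place of 4 after 6 h of 955 and 4 in place of 5 with SNS-032. Under mitochondrial scaling CCND2 turned to -0.27 at 1 h and its difference between the compounds to 0.19. AKT1 turned to -0.39 at 1 h, -0.97 and -1.28 at 6 h, and its change over time to -0.57. COPS5 turned to -0.62 at 1 h, E2F2 to -2.03 with 955 and -2.31 with SNS-032, and E2F7 to -2.06 and -2.26. The change from 1 h to 6 h turned to -0.19 for E2F2, -0.13 for E2F7 and -1.18 for E2F8. These turns follow from a subtraction common to all genes. At 1 h mitochondrial scaling raised the count past the threshold from 3 to 9 for E2F and pocket protein genes and from 2 to 10 for E2F targets, and without the fold bound these counts were 6 and 5. The p27 list went from 1 to 2 and the list of other G1/S cyclins from 0 to 1 at 1 h under mitochondrial scaling. The choice of SE changed no member's call under both criteria, but by adjusted p alone CCNE1 was lost between 6 h and 1 h (0.051) with the SE that ignores the shared control. No paired analysis was possible because the table holds no values per sample. For the same reason other normalizations (TMM or size factors), a filter on counts per sample and leaving out replicates in turn were not run.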
